A study of Arabidopsis thaliana with 12 samples.

Results

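The gene set described here comprises 10 cold- and drought-inducible genes of Arabidopsis thaliana: COR15A (AT2G42540), COR15B (AT2G42530), KIN1 (AT5G15960), COR6.6 (AT5G15970, also called KIN2), COR47 (AT1G20440), ERD10 (AT1G20450), RD29A (AT5G52310), RD29B (AT5G52300), RAB18 (AT5G66400) and RD22 (AT5G25610). They were picked by gene identifier out of 23893 genes in the table, and all 10 are among the 18851 genes with a mean of at least 1 TPM (an abundance corrected for gene length and scaled to the same total in each library) that were tested. RNA was sequenced from 7-day-old seedlings kept at 21 °C in short days, in 4 genotypes with 3 libraries each. The genotypes were h3.3kd;h2a.z (called the double mutant here), h3.3kd, h2a.z and the wild type Col. H3.3 and H2A.Z are histone variants that are placed into chromatin outside DNA replication; h3.3kd is an H3.3 knockdown for which the labels give the line h3.3kd-1, h2a.z is a mutant of H2A.Z, and the double mutant carries both. No allele, and no description of how H3.3 was knocked down, is given in these sources. The labels name no cold or drought treatment in any group.

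These genes are textbook readouts of cold, drought and the hormone abscisic acid (ABA). Cold acts largely through the CBF (DREB1) transcription factors, which bind the CRT/DRE element with the core CCGAC. ABA binds PYR/PYL receptors, which block clade A PP2C phosphatases, so that SnRK2 kinases activate ABF factors bound to the ABRE element with the core ACGTG. Most products of the set are small, highly hydrophilic proteins that protect membranes and other proteins when cells lose water. H2A.Z has been connected to temperature perception in plants, and stress-responsive genes often carry it over the gene body.

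Of the 10 genes, 8 form 4 tandem pairs of neighbouring genes. On the RefSeq assembly TAIR10.1, COR15B (chr2:17708593-17710433, minus strand) ends 7 bases from COR15A (chr2:17710441-17712330, minus strand), and KIN1 (chr5:5209717-5210826, plus strand) lies 892 bases from COR6.6 (chr5:5211719-5212743, plus strand). COR47 (chr1:7084409-7086873, minus strand) lies 1029 bases from ERD10 (chr1:7087903-7089606, minus strand), and RD29B (chr5:21237021-21239531, plus strand) 1185 bases from RD29A (chr5:21240717-21243644, plus strand). RAB18 (chr5:26518277-26519447, minus strand) and RD22 (chr5:8914122-8916856, minus strand) stand alone. The longest identical exonic stretch was 58 bases in KIN1 and COR6.6, 41 in RD29A and RD29B, 31 in COR15A and COR15B and 29 in COR47 and ERD10. Reads from the first of these pairs are the most likely to be shared, and the separate values of all pairs are uncertain to that extent. COR15B also overlaps its other neighbour AT2G42520 over 468 bases and RAB18 overlaps AT5G66410 over 11 bases; the sources do not say whether strand was kept.

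The 300 bases before the annotated start of 5 of these genes are shown because the members of a pair differed in their response (KIN1 with COR6.6, RD29B with RD29A, and COR15A, whose partner COR15B has a window that overlaps COR15A). COR47 and ERD10, whose ratio also differed over the genotypes, are not shown. Their windows held 0 CCGAC and 0 ACGTG matches. Sequences are from RefSeq TAIR10.1, read 5′ to 3′ on the strand of the gene and ending at the base before the start. Capitals mark CCGAC (or GTCGG, the same core on the other strand) and ACGTG (or CACGT).
RD29B (chr5:21236721-21237020, plus strand): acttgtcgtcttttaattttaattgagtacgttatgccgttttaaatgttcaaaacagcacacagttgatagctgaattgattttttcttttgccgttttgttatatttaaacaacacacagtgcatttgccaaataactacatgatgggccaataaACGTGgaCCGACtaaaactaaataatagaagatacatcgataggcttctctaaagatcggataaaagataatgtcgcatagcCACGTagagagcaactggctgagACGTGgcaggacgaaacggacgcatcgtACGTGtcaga
RD29A (chr5:21240417-21240716, plus strand): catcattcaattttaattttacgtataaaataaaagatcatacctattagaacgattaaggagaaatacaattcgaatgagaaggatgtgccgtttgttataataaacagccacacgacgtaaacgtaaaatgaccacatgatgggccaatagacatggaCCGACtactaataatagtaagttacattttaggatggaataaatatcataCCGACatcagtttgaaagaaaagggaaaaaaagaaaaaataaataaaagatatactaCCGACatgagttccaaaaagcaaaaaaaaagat
COR15A (chr2:17712331-17712630, minus strand): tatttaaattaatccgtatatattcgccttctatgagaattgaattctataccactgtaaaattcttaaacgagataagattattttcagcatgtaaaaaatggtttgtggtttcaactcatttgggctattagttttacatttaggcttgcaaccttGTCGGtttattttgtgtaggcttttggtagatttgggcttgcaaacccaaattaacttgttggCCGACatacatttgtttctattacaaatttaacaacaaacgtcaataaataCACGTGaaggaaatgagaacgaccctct
KIN1 (chr5:5209417-5209716, plus strand): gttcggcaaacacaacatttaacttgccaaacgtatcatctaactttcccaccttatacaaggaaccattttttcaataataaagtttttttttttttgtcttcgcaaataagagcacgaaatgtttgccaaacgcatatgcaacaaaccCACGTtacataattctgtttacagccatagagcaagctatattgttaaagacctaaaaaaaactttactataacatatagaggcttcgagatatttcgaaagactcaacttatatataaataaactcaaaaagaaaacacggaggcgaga
COR6.6 (chr5:5211419-5211718, plus strand): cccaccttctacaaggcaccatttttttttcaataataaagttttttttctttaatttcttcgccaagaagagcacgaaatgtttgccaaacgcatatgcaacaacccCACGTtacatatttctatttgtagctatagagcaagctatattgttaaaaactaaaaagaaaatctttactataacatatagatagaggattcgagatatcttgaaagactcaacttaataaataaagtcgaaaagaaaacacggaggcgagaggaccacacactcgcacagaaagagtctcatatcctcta
The window of RD29A held 3 CCGAC matches and 0 ACGTG matches, whereas that of RD29B held 1 CCGAC and 4 ACGTG matches. In COR15A there were 2 CCGAC matches and a palindrome CACGTG, counted as 2 ACGTG matches, 1 on each strand. KIN1 and COR6.6 each had 1 ACGTG match and 0 CCGAC matches, and their windows shared an identical stretch of 37 bases, against 16 bases in RD29A and RD29B. Within 300 bases, 4 of the 10 genes held CCGAC and 6 held ACGTG on either strand; of 27443 protein-coding genes, 13.9% held CCGAC and 25.6% held ACGTG in the same window. Within 1000 bases the counts were 8 and 7 of the 10 genes, against 37.4% and 54.4% of all. A match describes letters only, and no match says nothing of a factor's binding.

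The libraries held about 16500000 to 25400000 reads, estimated from the step size of low TPM values, except h2a.z replicate 1 with about 4350000, in which 1 read weighed 3.86 times as much as in Col replicate 1. Behind the member values stood at least about 63 reads (KIN1 in double mutant replicate 3), and about 85 reads for RAB18 in h2a.z replicate 1. The targeted transcripts checked the labels: against Col, HTR4 and HTR8 (H3.3) were at log2 -3.42 and -4.10 in the double mutant and at -3.38 and -3.77 in h3.3kd. HTA8, HTA9 and HTA11 (H2A.Z) were at -3.30, -1.40 and -3.24 in the double mutant and at -3.25, -2.27 and -2.72 in h2a.z, whereas the third H3.3 gene HTR5 was at only -0.43 in the double mutant and -0.27 in h3.3kd. Differences between genotypes were tested with limma on log2(TPM + 1), and a gene is described as called, as having risen or as having fallen where the Benjamini-Hochberg adjusted p over all 18851 genes was below 0.05. Log2 differences below are on that scale, given with their standard error (SE). The labels do not say that libraries of a genotype were grown separately, and the p-values therefore cover the spread between libraries only, which may be technical. In whole seedlings, fewer cells of a type and less RNA per cell cannot be told apart.

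**Figure D1:**
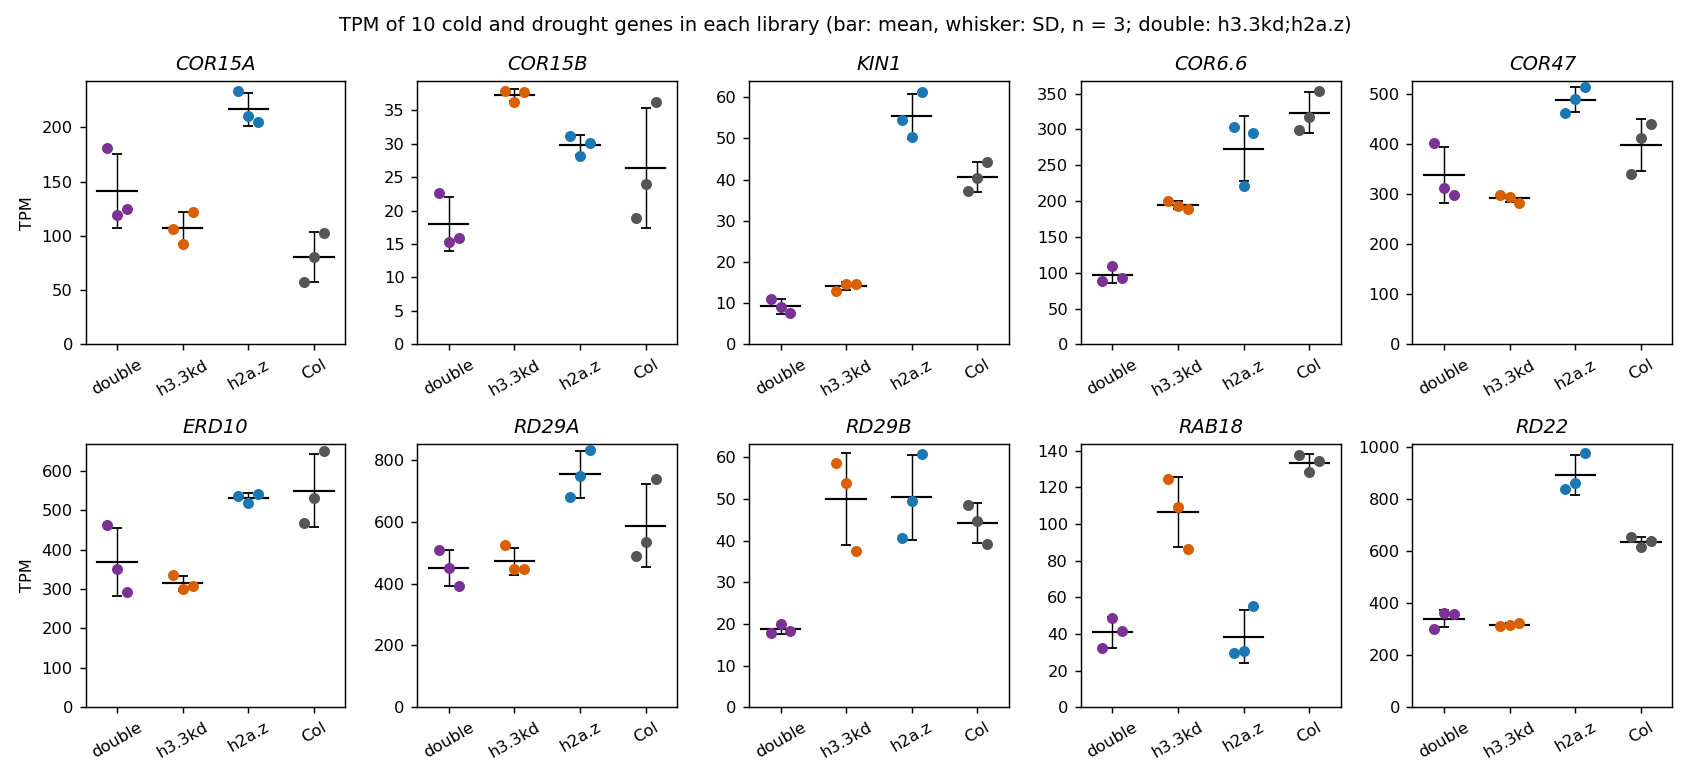
TPM (linear axis) of the 10 genes in each of the 12 libraries, 3 per genotype, with a bar at the mean of each genotype and a whisker for the SD. The genotypes run from the double mutant over h3.3kd and h2a.z to Col. KIN1, COR6.6, ERD10, RD29B, RAB18 and RD22 sit lower in all 3 double mutant libraries than in all 3 Col libraries, and COR15A sits higher. ERD10 does so only narrowly (463 against 468 TPM). The share of all genes that separate in this way was not counted, so the number of such members is no result about the set.

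Counted over the set, the double mutant had 8 of 10 genes lower than Col and 1 higher, where 30.7% of all genes tested were lower and 20.3% higher (51% called in all). In h3.3kd, 5 of the 10 were lower and 1 was higher, where 26.7% of all genes were lower and 9.12% higher (35.9% in all). In h2a.z the split went the other way, with 1 of the 10 lower and 5 higher, where 18.3% of all genes were lower and 28.9% higher (47.2% in all). The median log2 difference of the set was -0.75 in the double mutant (all genes -0.07), -0.39 in h3.3kd (all genes -0.11) and 0.26 in h2a.z (all genes 0.06). These 3 comparisons share the Col libraries. The median of all genes in h3.3kd lay 0.11 below Col, and rescaling TPM by median ratios moved the split of calls there: 51.0% of calls over all genes were higher after rescaling and 25.4% before. Likewise the share of higher calls was 50.6% after and 39.8% before rescaling in the double mutant, and 49.0% after and 61.2% before in h2a.z. With rescaled TPM the set had 6 lower and 1 higher in the double mutant, 5 lower and 2 higher in h3.3kd, and 2 lower and 3 higher in h2a.z.

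The summed TPM of the 10 genes ran from 1642 to 2030.0 in the double mutant libraries and from 1850.1 to 2012 in h3.3kd. It ran from 3206 to 3571 in h2a.z, against 2547 to 3179 in Col. The double mutant and h3.3kd overlapped in this sum and both lay below every Col library. Every h2a.z library lay above every Col library, but only narrowly, at 3206 against 3179 TPM. RD22, RD29A, ERD10 and COR47 weigh most in the sum, which was not taken on rescaled TPM. In Col the order of mean levels was RD22, RD29A, ERD10, COR47, COR6.6, RAB18, COR15A, RD29B, KIN1 and COR15B, in which the libraries of RD22 and RD29A, of RD29A and ERD10, of COR47 and COR6.6 and of RD29B and KIN1 overlapped. RD22 led in h2a.z as well, at 892 ± 75.5 TPM (SD, n = 3), and RD29A led in the double mutant, at 452 ± 58.4 TPM, and in h3.3kd, at 473 ± 43.8 TPM. In the double mutant KIN1 was the lowest of the 10 and COR15A was the fifth, above COR6.6 and RAB18.

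COR15A and COR15B encode closely related hydrophilic proteins of the chloroplast stroma that protect chloroplast membranes during freezing. COR15A rose in both genotypes with the h2a.z mutation, and COR15B fell in one of them. COR15A reached 181, 119 and 125 TPM in h3.3kd;h2a.z, 107, 92.3 and 122 TPM in h3.3kd and 234, 210.5 and 205 TPM in h2a.z, against 57.6, 80.9 and 103 TPM in Col (replicates 1, 2 and 3). All h2a.z libraries lay above all others, and all double mutant libraries lay above all Col libraries, while h3.3kd overlapped Col. COR15A differed from Col by 0.82 (SE 0.18, adjusted p = 0.00152) in the double mutant, a 1.76-fold rise, by 0.44 (SE 0.18, adjusted p = 0.0709) in h3.3kd, which was not called, and by 1.45 (SE 0.18, adjusted p = 1.29e-05) in h2a.z, a 2.74-fold rise. The h3.3kd difference was called with rescaled TPM (0.56, adjusted p = 0.0369), without Col replicate 3 (adjusted p = 0.0135) and without double mutant replicate 1 (adjusted p = 0.0426). Relative to h2a.z the double mutant was lower by 0.63 (SE 0.18, adjusted p = 0.00908), and relative to h3.3kd its difference of 0.38 (SE 0.18, adjusted p = 0.114) was not called. The double mutant fell short of the sum of both single differences: that sum was 1.89, the double mutant reached 0.82, and the interaction was -1.07 (SE 0.25, adjusted p = 0.00954).

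COR15B moved apart from its neighbour. COR15B reached 22.6, 15.3 and 15.9 TPM in h3.3kd;h2a.z, 37.8, 36.3 and 37.7 TPM in h3.3kd and 31.2, 28.1 and 30.1 TPM in h2a.z, against 18.9, 23.9 and 36.3 TPM in Col (replicates 1, 2 and 3). Double mutant libraries overlapped those of Col but lay below all h3.3kd and h2a.z libraries, and Col itself spread widely. Against Col, COR15B fell in the double mutant (-0.50, SE 0.17, adjusted p = 0.0266), rose in h3.3kd (0.53, SE 0.17, adjusted p = 0.0277) and was not called in h2a.z (0.22, SE 0.17, adjusted p = 0.322). The first of these calls was lost with rescaled TPM (adjusted p = 0.0639), without Col replicate 3 (log2 -0.25, adjusted p = 0.147), and without double mutant replicate 2 (0.0967) or 3 (0.0947). The h3.3kd call was lost without filtering (adjusted p = 0.0524), without a variance trend (0.0517), without Col replicate 1 (log2 0.33, adjusted p = 0.15) or 2 (0.0824) and without any single h3.3kd library (0.0574 to 0.0703). COR15B was called in h2a.z without Col replicate 3 (adjusted p = 0.0144). The falls against both single mutants were -1.03 (SE 0.17, adjusted p = 0.000349) against h3.3kd and -0.72 (SE 0.17, adjusted p = 0.00348) against h2a.z, and the interaction was -1.25 (SE 0.25, adjusted p = 0.00316). On the other side, AT2G42520, which overlaps COR15B, was at log2 -0.36 (SE 0.07) in the double mutant, -0.20 (SE 0.07) in h3.3kd and -0.16 (SE 0.07, not called) in h2a.z.

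KIN1 and COR6.6 encode a closely similar pair of small hydrophilic proteins induced by cold and ABA. Both were lowest in the double mutant and were also lower in h3.3kd than in Col, but they parted in h2a.z. KIN1 reached 11.0, 9.09 and 7.58 TPM in h3.3kd;h2a.z, 13, 14.7 and 14.7 TPM in h3.3kd and 54.5, 50.4 and 61.2 TPM in h2a.z, against 37.1, 40.3 and 44.4 TPM in Col (replicates 1, 2 and 3). The 4 genotypes did not overlap at all: the double mutant was lowest, followed by h3.3kd, Col and h2a.z. KIN1 was 4.10-fold lower in the double mutant than in Col (log2 -2.04, SE 0.11, adjusted p = 3.14e-09) and 2.74-fold lower in h3.3kd (-1.46, SE 0.11, adjusted p = 2.57e-07), and it rose in h2a.z (0.44, SE 0.11, adjusted p = 0.00512). Between the double mutant and h2a.z the difference was -2.47 (SE 0.11, adjusted p = 4.55e-10), and between the double mutant and h3.3kd it was -0.58 (SE 0.11, adjusted p = 0.001). The interaction was -1.02 (SE 0.16, adjusted p = 0.000587), so the h2a.z mutation went with more KIN1 without the H3.3 knockdown and with less in the knockdown.

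COR6.6 reached 89.0, 109 and 92.5 TPM in h3.3kd;h2a.z, 200.5, 194 and 189 TPM in h3.3kd and 303, 221 and 295 TPM in h2a.z, against 299, 318 and 354 TPM in Col (replicates 1, 2 and 3). Here the double mutant again lay below all others and h3.3kd below Col and h2a.z, while h2a.z overlapped Col. COR6.6 fell in the double mutant by 1.73 (SE 0.11, adjusted p = 8.48e-09) and in h3.3kd by 0.73 (SE 0.11, adjusted p = 0.00011). Its difference in h2a.z, -0.25 (SE 0.11, adjusted p = 0.0614), was not called, but it was with rescaled TPM (-0.33, adjusted p = 0.0362), without h2a.z replicate 1 (adjusted p = 0.0239) or 3 (0.0394), and without double mutant replicate 2 (0.0414). Against the single mutants the double mutant fell by 1.0 (SE 0.11, adjusted p = 5.31e-06) relative to h3.3kd and by 1.48 (SE 0.11, adjusted p = 5.34e-08) relative to h2a.z. The sum of both single differences was -0.98 against -1.73 in the double mutant, an interaction of -0.75 (SE 0.15, adjusted p = 0.00344). Summed over KIN1 and COR6.6, the level was 106 ± 10.6 TPM in the double mutant, 209 ± 4.68 in h3.3kd and 329 ± 49.4 in h2a.z, against 364 ± 31.7 in Col (SD, n = 3 each).

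COR47 and ERD10 encode acidic dehydrins, which bind membranes and proteins in drying or freezing cells. Both were lower in h3.3kd than in Col, and neither was called between the double mutant and h3.3kd. COR47 reached 402, 311 and 299 TPM in h3.3kd;h2a.z, 297, 293 and 283 TPM in h3.3kd and 462, 489 and 513 TPM in h2a.z, against 339.8, 411 and 440.2 TPM in Col (replicates 1, 2 and 3). Every h3.3kd library lay below Col and every h2a.z library above it. The double mutant overlapped Col and lay above h3.3kd only just, at 298.86 TPM in its lowest library against 297.45 TPM in the highest of h3.3kd. COR47 fell in h3.3kd (-0.44, SE 0.10, adjusted p = 0.00407) and rose in h2a.z (0.30, SE 0.10, adjusted p = 0.0238), and its difference in the double mutant was not called (-0.24, SE 0.10, adjusted p = 0.0639). The rise in h2a.z was lost with rescaled TPM (0.23, adjusted p = 0.0741), without a variance trend (0.053), without Col replicate 1 (log2 0.20, adjusted p = 0.133), and without h2a.z replicate 2 (0.0559) or 3 (0.076). The double mutant was called as lower without Col replicate 1 (adjusted p = 0.0122) or without double mutant replicate 1 (0.00309).

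ERD10 reached 463, 351 and 291 TPM in h3.3kd;h2a.z, 336, 300.4 and 307 TPM in h3.3kd and 536, 518 and 541 TPM in h2a.z, against 468, 531 and 650.2 TPM in Col (replicates 1, 2 and 3). Both the double mutant and h3.3kd lay below every Col and every h2a.z library, and they overlapped each other. ERD10 fell by 0.59 (SE 0.13, adjusted p = 0.00195) in the double mutant and by 0.79 (SE 0.13, adjusted p = 0.000374) in h3.3kd, and was not called in h2a.z (-0.03, SE 0.13, adjusted p = 0.851). Relative to h2a.z, the double mutant had less COR47 (-0.54, SE 0.10, adjusted p = 0.000535) and less ERD10 (-0.55, SE 0.13, adjusted p = 0.0033). Relative to h3.3kd neither was called, with differences of 0.20 (SE 0.10, adjusted p = 0.147) for COR47 and 0.20 (SE 0.13, adjusted p = 0.26) for ERD10; ERD10 became higher by that test when replicate 3 of the double mutant was left out (adjusted p = 0.0397). No interaction was called for COR47 (-0.10, SE 0.14, adjusted p = 0.663) or ERD10 (0.24, SE 0.19, adjusted p = 0.417).

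RAB18 encodes another dehydrin, known for its strong response to ABA. It was low in both genotypes with the h2a.z mutation. RAB18 reached 32.1, 48.7 and 41.7 TPM in h3.3kd;h2a.z, 124, 109 and 86.6 TPM in h3.3kd and 29.7, 30.4 and 55.2 TPM in h2a.z, against 138, 128 and 134 TPM in Col (replicates 1, 2 and 3). The double mutant and h2a.z overlapped each other and lay below all h3.3kd and Col libraries, and h3.3kd lay below Col. Against Col the differences were -1.70 (SE 0.20, adjusted p = 5.61e-06) in the double mutant, a 3.26-fold fall, -0.33 (SE 0.20, adjusted p = 0.204) in h3.3kd, which was not called, and -1.83 (SE 0.20, adjusted p = 3.62e-06) in h2a.z, a 3.55-fold fall. Relative to h3.3kd, RAB18 in the double mutant was lower by 1.37 (SE 0.20, adjusted p = 8.98e-05). Between the double mutant and h2a.z the difference was 0.12 (SE 0.20, adjusted p = 0.626) and not called, with a 95% interval from -0.30 to 0.55, and the interaction was 0.46 (SE 0.28, adjusted p = 0.279) and not called. Both depended on h2a.z replicate 3: without it, RAB18 was called as higher in the double mutant than in h2a.z (0.41, adjusted p = 0.0381), and its interaction was called (0.74, adjusted p = 0.0213). In that library the summed level of 12 seed maturation markers was 392 TPM, against 21.7 and 22.9 TPM in the other h2a.z libraries. The double mutant libraries held 139, 400 and 329 TPM of these markers (replicates 1, 2 and 3). Without h2a.z replicate 3, the double mutant was thus compared with h2a.z libraries that were lower in these markers. RAB18 is itself abundant in seeds, and the part of these transcripts in its value was not tested in any library.

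RD29A and RD29B encode related hydrophilic proteins; the promoter of RD29A is known for its response to cold and drought through the CRT/DRE element, and that of RD29B for its response to ABA. Both were called as lower in the double mutant, RD29B by 1.19 and RD29A by 0.36, and the call of RD29A was lost in several alternatives. RD29B reached 17.9, 19.9 and 18.2 TPM in h3.3kd;h2a.z, 58.8, 53.8 and 37.6 TPM in h3.3kd and 40.7, 49.5 and 60.9 TPM in h2a.z, against 48.6, 44.8 and 39.1 TPM in Col (replicates 1, 2 and 3). The double mutant lay below every other library, and the other 3 genotypes overlapped. RD29B was 2.29-fold lower in the double mutant than in Col (log2 -1.19, SE 0.15, adjusted p = 1.35e-05), whereas neither h3.3kd (0.16, SE 0.15, adjusted p = 0.442) nor h2a.z (0.17, SE 0.15, adjusted p = 0.37) was called. It fell by 1.35 (SE 0.15, adjusted p = 9.53e-06) relative to h3.3kd and by 1.37 (SE 0.15, adjusted p = 4.69e-06) relative to h2a.z. The interaction of -1.52 (SE 0.21, adjusted p = 0.000277) was the most negative of the 10 genes, with single differences that summed to 0.33 and a double mutant at -1.19. The 4 ACGTG matches in its window lie 143, 61, 38 and 10 bases before the start, and the 3 CCGAC matches of RD29A lie 140, 90 and 33 bases before its own.

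RD29A reached 511, 451 and 394 TPM in h3.3kd;h2a.z, 524, 447 and 449 TPM in h3.3kd and 681, 749 and 831 TPM in h2a.z, against 488, 536 and 740.0 TPM in Col (replicates 1, 2 and 3). The double mutant and h3.3kd overlapped Col and each other, and h2a.z overlapped Col through Col replicate 3 only. RD29A was called as lower in the double mutant (-0.36, SE 0.13, adjusted p = 0.0306) and as higher in h2a.z (0.38, SE 0.13, adjusted p = 0.0283), and was not called in h3.3kd (-0.29, SE 0.13, adjusted p = 0.094). Both calls were lost with rescaled TPM (adjusted p = 0.0945 for the double mutant and 0.086 for h2a.z), without filtering (0.0569 and 0.0517) and without a variance trend (0.0612 and 0.0583). The double mutant call was also lost without Col replicate 3 (log2 -0.19, adjusted p = 0.174) or double mutant replicate 2 (0.0558) or 3 (0.138). The h2a.z call was lost without Col replicate 1 (adjusted p = 0.149) or 2 (0.0998) or h2a.z replicate 2 (0.0601) or 3 (0.105), and RD29A was called as lower in h3.3kd without Col replicate 1 (0.0348). The difference to h2a.z, from which the double mutant was lower by 0.74 (SE 0.13, adjusted p = 0.00032), was called in all 18 alternatives; relative to h3.3kd it was -0.07 (SE 0.13, adjusted p = 0.715) and not called. The interaction of -0.45 (SE 0.19, adjusted p = 0.111) was not called, but was without Col replicate 3 (-0.62, adjusted p = 0.0117).

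RD22 encodes a BURP-domain protein induced by drought and ABA, and it had the highest mean of the 10 in Col. It was low in both genotypes with the H3.3 knockdown. RD22 reached 302, 360.0 and 358 TPM in h3.3kd;h2a.z, 314, 315 and 323 TPM in h3.3kd and 839, 860.0 and 979 TPM in h2a.z, against 652, 614 and 637 TPM in Col (replicates 1, 2 and 3). Double mutant and h3.3kd libraries overlapped each other and lay below all Col libraries, and all h2a.z libraries lay above Col. RD22 fell by 0.90 (SE 0.07, adjusted p = 9.74e-08) in the double mutant and by 1.0 (SE 0.07, adjusted p = 1.09e-07) in h3.3kd, and rose by 0.49 (SE 0.07, adjusted p = 5.52e-05) in h2a.z. Between the double mutant and h3.3kd the difference was 0.09 (SE 0.07, adjusted p = 0.324) and not called, with a 95% interval from -0.06 to 0.24; leaving out replicate 1 of the double mutant made it called (adjusted p = 0.0411). Relative to h2a.z, the double mutant was lower by 1.39 (SE 0.07, adjusted p = 1.31e-09), and the interaction was -0.39 (SE 0.10, adjusted p = 0.0138), which was lost with rescaled TPM (-0.36, adjusted p = 0.0562).

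**Figure D2:**
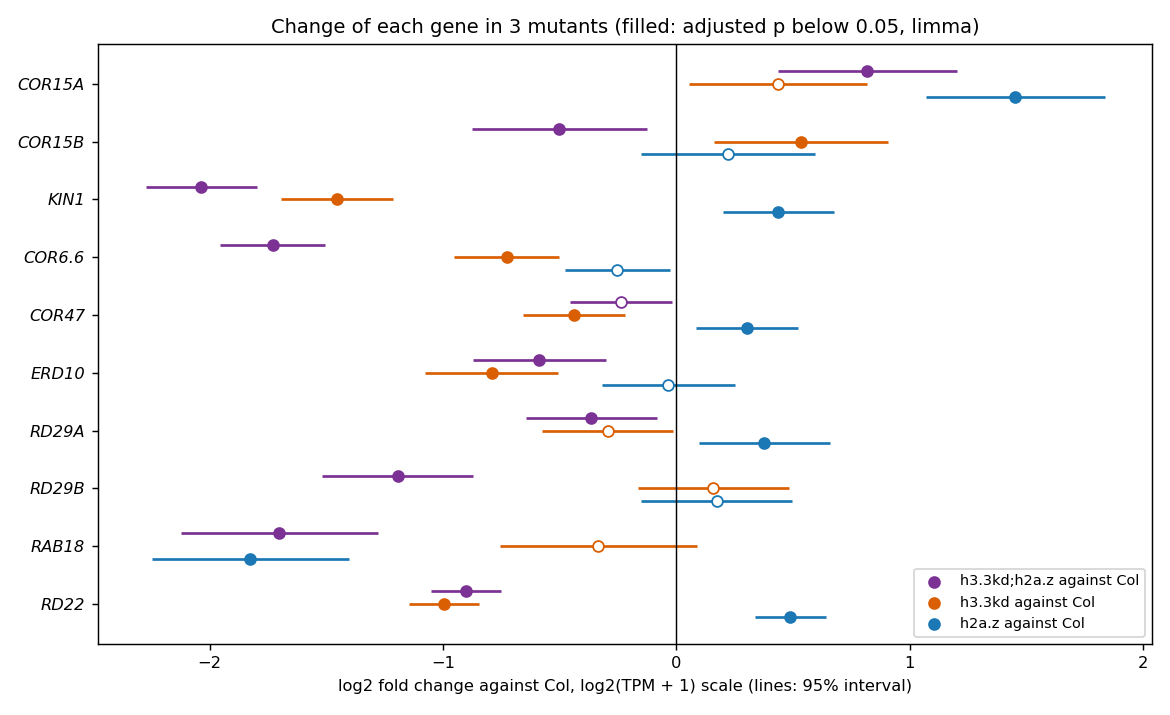
Log2 differences against Col (horizontal axis) for the 10 genes in the double mutant, h3.3kd and h2a.z. Bars are confidence intervals, which are wider than the SE. Filled points were called by limma and open points were not. KIN1 and RD22 lie left of 0 in both knockdown genotypes and right of 0 in h2a.z, and RAB18 lies far left in both genotypes with the h2a.z mutation.

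Set against each single mutant, the double mutant had 5 of the 10 genes lower and 0 higher than h3.3kd, where 13.8% of all genes were lower and 20.9% higher (34.7% called in all). By unadjusted p below 0.05, 0 of the 10 were higher there. Compared with h2a.z, 9 of the 10 were lower and 0 were higher in the double mutant, where 34.3% of all genes were lower and 14.2% higher (48.5% called in all; 29.2% of these calls were higher, and 52.8% with rescaled TPM); by unadjusted p below 0.05, 0 were higher. The interaction was called as negative for 6 of the 10 genes and as positive for 0, where 10.1% of all genes were negative and 7.39% positive (17.5% in all); by unadjusted p below 0.05, 0 were positive. Those 6 were COR15A, COR15B, KIN1, COR6.6, RD29B and RD22. In each of them the double mutant had less transcript than the sum of both single differences on the log2 scale would give. For ERD10 and RAB18 the double mutant stood above that sum, by 0.24 and 0.46, and neither was called.

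**Figure D3:**
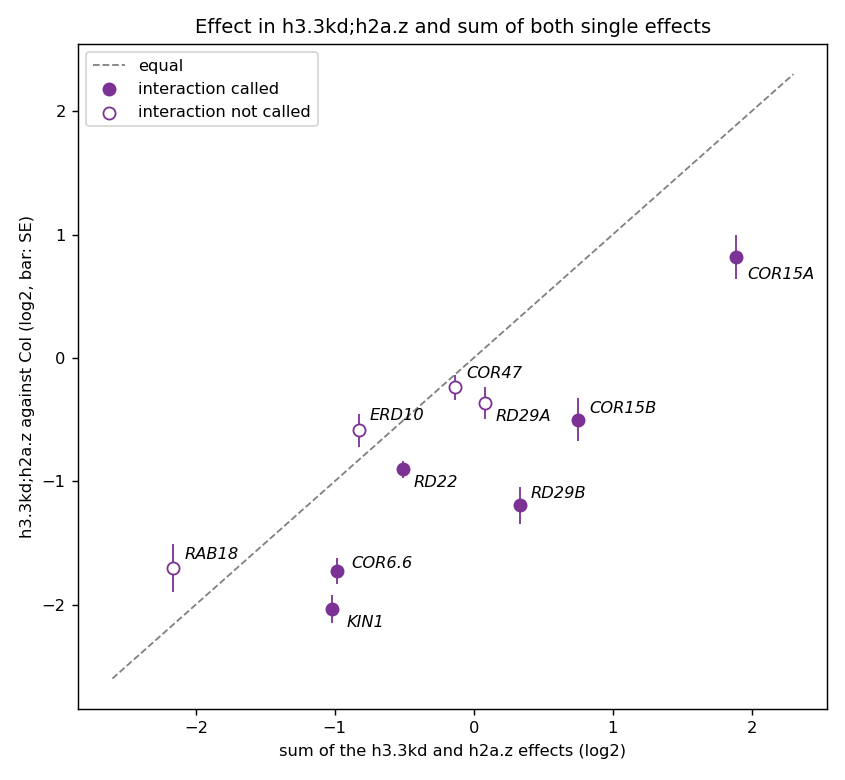
Double mutant difference from Col (vertical axis, log2, bars SE) against the sum of the h3.3kd and h2a.z differences (horizontal axis, log2) for the 10 genes, with a dashed line where both are equal. The 6 genes with a called interaction (filled) all lie below the line, RD29B at 0.33 and -1.19.

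Within each tandem pair the ratio of the first-named to the other gene compares neighbours inside the same library. A scaling of the library cancels in this ratio, but not fully in the log2 ratio of TPM + 1 that was tested. The ratio of COR15A to COR15B was 7.87 ± 0.131 in the double mutant, 2.87 ± 0.349 in h3.3kd and 7.26 ± 0.391 in h2a.z, against 3.09 ± 0.272 in Col (SD, n = 3 each). It was higher in all 6 libraries with the h2a.z mutation than in all 6 without it, and differed over the genotypes (exact permutation test of the log2 ratio of TPM + 1, p = 0.00201, adjusted over 4 pairs 0.00403). KIN1 to COR6.6 stood at 0.0962 ± 0.0237 in the double mutant, 0.0729 ± 0.00703 in h3.3kd and 0.205 ± 0.0242 in h2a.z, against 0.126 ± 0.00131 in Col (exact permutation adjusted p = 0.00104). All 3 h3.3kd libraries lay below Col in this ratio and all 3 h2a.z libraries above it. By this ratio every double mutant library lay below every Col library, but replicate 1 only just, at 0.1236 against 0.1243 in Col replicate 1. By the log2 ratio of TPM + 1, the value tested, the double mutant did not separate from Col. Replicate 1 of the double mutant was at -2.91 there, above all 3 Col libraries (-2.97 to -2.95), while its replicates 2 and 3 were both at -3.45.

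The ratio of RD29A to RD29B was 24.3 ± 3.70 in the double mutant, 9.72 ± 1.95 in h3.3kd and 15.2 ± 1.55 in h2a.z, against 13.7 ± 4.67 in Col (exact permutation adjusted p = 0.00823). All double mutant libraries, in which RD29B was low, lay above all others. COR47 to ERD10 stood at 0.927 ± 0.0856 in the double mutant, 0.927 ± 0.0462 in h3.3kd and 0.919 ± 0.0490 in h2a.z, against 0.726 ± 0.0490 in Col (exact permutation adjusted p = 0.0177), with every library of the 3 mutants above every Col library. The test permuted the 12 libraries over the 4 genotypes in 369600 ways, with a smallest possible p of 6.49e-05. It asks only whether any genotype differs. An exact permutation of 3 against 3 libraries alone could not go below p = 0.1 and was not made. No ratio lost its call when 1 library was left out.

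**Figure D4:**
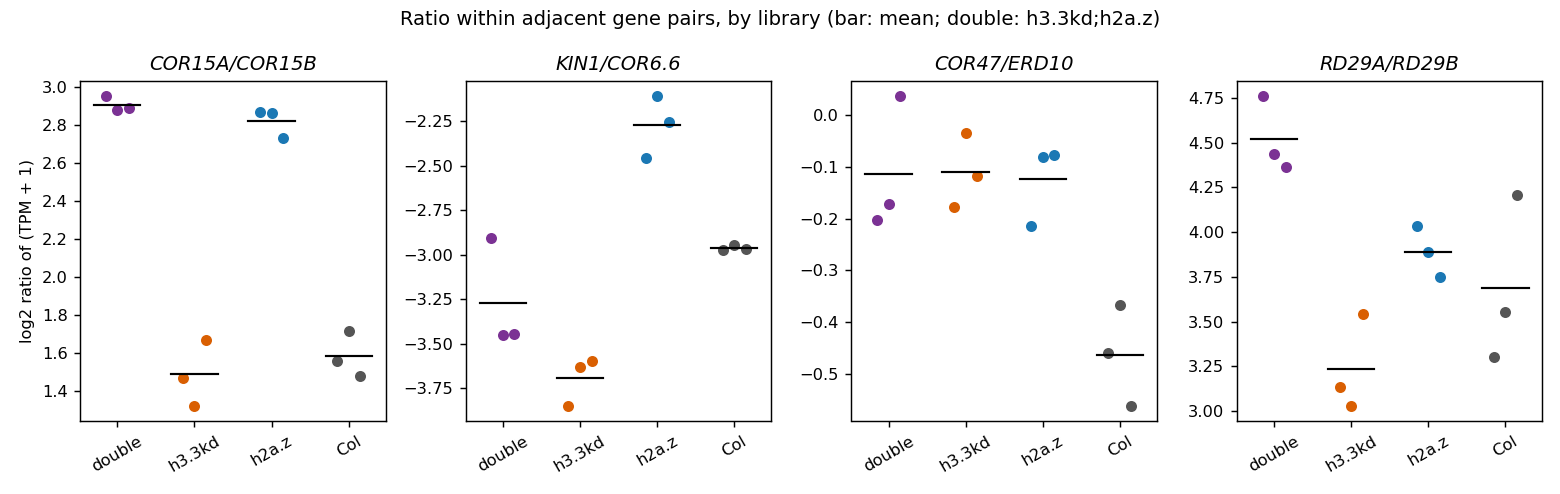
Log2 ratio of TPM + 1 within each of the 4 adjacent pairs (vertical axes) in each library, with a bar at the mean of each genotype. COR15A to COR15B is higher in the 6 libraries with the h2a.z mutation, and RD29A to RD29B is highest in the double mutant.

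The spread among libraries was shared by several members. In Col, replicate 3 was the highest and replicate 1 the lowest library for the same 7 genes (COR15A, COR15B, KIN1, COR6.6, COR47, ERD10 and RD29A). In h2a.z, replicate 3 was the highest for 7 genes, among them RAB18 and RD29B. The same count was not made over all genes tested, so it is no result about these genes as a set. What set these libraries apart was not tested. Seed maturation markers moved with genotype as well: their summed level was 139 to 400.4 TPM in the double mutant, 108 to 139 in h3.3kd and 21.7 to 392 in h2a.z, against 43.9 to 68.2 in Col, and of 11 tested markers 7 rose and 1 fell in the double mutant, 2 rose in h3.3kd, and 1 rose and 2 fell in h2a.z. Summed shoot markers ran from 46179 to 53174 TPM in the double mutant, 49526 to 51399 in h3.3kd and 37072 to 43134 in h2a.z, against 40747 to 44837 in Col. Summed root markers ran from 115 to 155 TPM in the double mutant, 123 to 132 in h3.3kd and 195 to 241 in h2a.z, against 117 to 149 in Col. Of 5 shoot markers tested, 2 rose and 1 fell in the double mutant, 3 rose in h3.3kd and 4 fell in h2a.z; of 6 root markers, 1 rose in the double mutant, 1 rose and 1 fell in h3.3kd, and 4 rose and 1 fell in h2a.z. For comparison, higher calls made up 20.3% of the 18851 tested genes in the double mutant, 9.12% in h3.3kd and 28.9% in h2a.z. Lower calls made up 30.7%, 26.7% and 18.3% in the same order. Marker counts near these shares say nothing about the markers as a group. No seed, shoot or root marker was at 0 in every library of a genotype, and the part of these markers in the member values was not tested.

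Among genes next to the members on the chromosome, 9 of 12 were tested. Of these, by limma, 2 rose and 3 fell in the double mutant and 1 rose and 3 fell in h3.3kd. In h2a.z 5 rose and 0 fell, and 1 fell by unadjusted p below 0.05. Over all genes tested, 20.3% rose and 30.7% fell in the double mutant, 9.12% and 26.7% in h3.3kd, and 28.9% and 18.3% in h2a.z. A count near these shares is no result about the neighbours. CYP96A4, a cytochrome P450 gene beside RD29A, was at log2 -0.83 in the double mutant, -1.40 in h3.3kd and 2.19 in h2a.z against Col (SE 0.12 each, all called), with an interaction of -1.62 (SE 0.17, adjusted p = 2.37e-05). RD29A itself was at -0.36 in the double mutant, -0.29 in h3.3kd and 0.38 in h2a.z. YUC6, an auxin synthesis gene beside RD22, was at -0.90 in the double mutant and -0.85 in h3.3kd (SE 0.10 each, both called) and at 0.18 in h2a.z (not called).

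The gene outside the set whose profile was most like that of each member was found by the root mean square of log2 differences over the 12 libraries, each gene centred on its Col mean. For COR47 it was AT3G55430 (0.0794), for RD22 AT1G29660 (0.0917), for RD29A the phosphatase gene PP2CA (0.112) and for ERD10 AT2G04360 (0.144). For COR6.6 it was IGMT4 (0.168), for COR15A IQD25 (0.197), for KIN1 AT5G45840 (0.216) and for COR15B ANNAT2 (0.224). For RD29B it was DOX1 (0.231) and for RAB18 AT5G48770 (0.253). AT5G48770 is close to the floor, listed at 0 in every double mutant and h2a.z library, with means of 1.72 TPM in h3.3kd and 2.37 in Col, so that the pseudocount of 1 sets the size of its log2 differences. Inside the set, RD29A and COR47 were closest to each other (0.143), whereas KIN1 and COR6.6 differed by 0.547. COR15A had the largest distance to its closest member, 0.896 to RD29A.

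The regulators of these genes were followed in lists of known pathway members. In the double mutant the median log2 difference was -0.42 for cold regulators, 0.01 for ABA receptors, -0.51 for clade A PP2C genes, -0.52 for SnRK2 kinases and ABA factors, -0.30 for ABA synthesis and breakdown and -0.13 for other cold and drought genes, against -0.07 over all genes. In h3.3kd these medians ran from -0.42 to -0.21 against -0.11 over all genes, and in h2a.z from -0.07 to 0.34 against 0.06. The counts that follow stand beside the shares over all genes tested, which were 20.3% higher and 30.7% lower in the double mutant, 9.12% and 26.7% in h3.3kd, and 28.9% and 18.3% in h2a.z. A list's count near these shares is no result about the list. Of 15 cold regulators tested (CBF1, DREB2B and MYB15 were below the minimum level), 0 rose and 10 fell in the double mutant, 0 rose and 8 fell in h3.3kd, and 3 rose and 4 fell in h2a.z. By unadjusted p below 0.05, 0 rose in the double mutant and 1 in h3.3kd. CBF3, which drives the COR genes in the cold, was at log2 -0.65 (SE 0.19, adjusted p = 0.0102) in the double mutant and -0.87 (SE 0.19, adjusted p = 0.00245) in h3.3kd. Its tandem neighbour CBF2 was at -0.90 (SE 0.21, adjusted p = 0.00266) in the double mutant and -0.73 (SE 0.21, adjusted p = 0.0149) in h3.3kd; without Col replicate 3 these were -0.59 and -0.43, and the h3.3kd call was lost (adjusted p = 0.0631), as it was without h3.3kd replicate 3 (0.0596). The CBF genes are closely similar and low, with CBF2 at 2.16 ± 0.414 TPM in the double mutant, 2.54 ± 0.417 in h3.3kd and 4.14 ± 0.297 in h2a.z, against 5.17 ± 2.49 in Col (SD, n = 3 each), so their separate values are uncertain. HSFC1, a heat shock factor gene of the cold response, was at -0.81 (SE 0.12, adjusted p = 4.26e-05) in the double mutant and -0.77 (SE 0.12, adjusted p = 0.000152) in h3.3kd. RAV1, a repressor of growth that responds to cold, fell in the double mutant (-0.87, SE 0.13, adjusted p = 6.2e-05) with an interaction of -0.89 (SE 0.18, adjusted p = 0.00424). In h2a.z the fallen genes included ICE2 (-0.95, SE 0.10, adjusted p = 2.06e-06) and ICE1 (-0.51, SE 0.06, adjusted p = 4.86e-06), which encode activators of the CBF genes, and ICE2 had a positive interaction (0.67, SE 0.14, adjusted p = 0.00394). With rescaled TPM the cold regulators in h3.3kd split into 3 higher and 5 lower.

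In the ABA pathway, of 9 tested receptor genes 2 rose and 3 fell in the double mutant, 0 rose and 6 fell in h3.3kd, and 5 rose and 2 fell in h2a.z. With rescaled TPM 4 receptor genes rose and 2 fell in the double mutant, so that the majority turned, and 3 rose and 3 fell in h2a.z. By unadjusted p below 0.05, 0 rose in h3.3kd. PYL2 fell by 1.38 (SE 0.13, adjusted p = 6.73e-07) in the double mutant and by 1.18 (SE 0.13, adjusted p = 7.68e-06) in h3.3kd. PYL4 rose in the double mutant (0.35, SE 0.09, adjusted p = 0.00556) and fell in h3.3kd (-0.41, SE 0.09, adjusted p = 0.0031), with an interaction of 0.81 (SE 0.13, adjusted p = 0.000744). Of 8 clade A PP2C genes, which encode the phosphatases that shut the pathway off, 2 rose and 6 fell in the double mutant, 0 rose and 6 fell in h3.3kd, and 2 rose and 1 fell in h2a.z. By unadjusted p below 0.05, 0 rose in h3.3kd. HAI1 fell by 1.30 (SE 0.19, adjusted p = 4.18e-05) in the double mutant and by 1.28 (SE 0.19, adjusted p = 0.000112) in h3.3kd, and ABI1 by 1.05 (SE 0.10, adjusted p = 1.12e-06) in the double mutant. HAI3 was higher in the double mutant (0.88, SE 0.16, adjusted p = 0.000437) and in h2a.z (1.98, SE 0.16, adjusted p = 2.37e-07), with an interaction of -1.11 (SE 0.23, adjusted p = 0.00459). HAI3 is a low gene, at 2.78 ± 0.373 TPM in the double mutant, 1.09 ± 0.447 in h3.3kd and 7.10 ± 0.166 in h2a.z, against 1.07 ± 0.360 in Col, and with a pseudocount of 0.1 its double mutant difference was 1.34.

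Of 9 SnRK2 kinases and ABA transcription factors, 2 rose and 6 fell in the double mutant, 1 rose and 5 fell in h3.3kd, and 2 rose and 3 fell in h2a.z, and the interaction was called for 0 (2 by unadjusted p below 0.05). The 2 that rose in the double mutant are near the 20.3% of all genes, while the 6 that fell stand against 30.7%. With rescaled TPM 2 rose and 4 fell in h3.3kd and 1 rose and 4 fell in h2a.z. ABI3, a seed-stage activator of ABA responses, fell in all 3 mutants, by 1.75 (SE 0.15, adjusted p = 3.25e-07) in the double mutant, 0.66 (SE 0.15, adjusted p = 0.00385) in h3.3kd and 1.09 (SE 0.15, adjusted p = 4.19e-05) in h2a.z. ABF3, an ABRE-binding factor, fell by 0.96 (SE 0.07, adjusted p = 6.04e-08) in the double mutant, 0.59 (SE 0.07, adjusted p = 1.96e-05) in h3.3kd and 0.29 (SE 0.07, adjusted p = 0.00425) in h2a.z. Of 8 genes for ABA synthesis and breakdown, 0 rose and 3 fell in the double mutant, 1 rose and 3 fell in h3.3kd, and 2 rose and 1 fell in h2a.z; by unadjusted p below 0.05, 0 rose in the double mutant, and with rescaled TPM 2 rose there and 2 fell in h2a.z. CYP707A1, which breaks ABA down, fell by 1.2 (SE 0.11, adjusted p = 6.49e-07) in the double mutant and by 1.05 (SE 0.11, adjusted p = 6.03e-06) in h3.3kd and rose by 0.59 (SE 0.11, adjusted p = 0.000554) in h2a.z, with an interaction of -0.74 (SE 0.16, adjusted p = 0.00509).

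Among 21 other cold and drought response genes, 3 rose and 7 fell in the double mutant, 7 rose and 9 fell in h3.3kd, and 9 rose and 4 fell in h2a.z. With rescaled TPM the split was 5 and 4 in the double mutant, 7 and 7 in h3.3kd and 9 and 5 in h2a.z. RD20, a calcium-binding protein gene induced by drought, had 15.9 ± 2.85 TPM in the double mutant, 9.78 ± 1.84 in h3.3kd and 80.9 ± 11.6 in h2a.z, against 17.9 ± 3.46 in Col (SD, n = 3 each). Its rise in h2a.z was 2.12 (SE 0.15, adjusted p = 6.29e-08) and its interaction -1.47 (SE 0.22, adjusted p = 0.000429). GOLS1, which makes galactinol for the raffinose sugars, rose in h2a.z (1.42, SE 0.08, adjusted p = 6.85e-09), with an interaction of -0.70 (SE 0.12, adjusted p = 0.00109). COR413IM1, a chloroplast envelope protein gene, rose by 0.90 (SE 0.11, adjusted p = 7.7e-06) in the double mutant, 1.06 (SE 0.11, adjusted p = 3.7e-06) in h3.3kd and 0.91 (SE 0.11, adjusted p = 8.81e-06) in h2a.z, with an interaction of -1.07 (SE 0.15, adjusted p = 0.000296). LTP3, a lipid transfer protein gene, had the largest rise of this list in the double mutant (1.83, SE 0.32, adjusted p = 0.000267) and in h3.3kd (1.57, SE 0.32, adjusted p = 0.00168), at 12.8 ± 1.2 TPM in the double mutant, 10.6 ± 0.867 in h3.3kd and 1.44 ± 1.45 in h2a.z, against 2.91 ± 0.483 in Col (SD, n = 3 each). With a pseudocount of 0.1 its h3.3kd call was lost (adjusted p = 0.0919), and its lower level in h2a.z (-0.88, SE 0.32, adjusted p = 0.0357) was no longer called in 7 of the 18 alternatives, among them those without h2a.z replicate 1 (-0.34, adjusted p = 0.128) and without any 1 of the Col replicates (adjusted p from 0.0519 to 0.104). GOLS2, a further galactinol synthase gene, fell in h3.3kd (-1.15, SE 0.15, adjusted p = 4.7e-05) and rose in h2a.z (1.29, SE 0.15, adjusted p = 8.45e-06). RD19, a cysteine protease gene, was higher in the double mutant (0.99, SE 0.07, adjusted p = 3.45e-08) and in h2a.z (1.03, SE 0.07, adjusted p = 2.5e-08). LTI30, a further dehydrin, fell in the double mutant (-0.91, SE 0.10, adjusted p = 3.34e-06).

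**Figure D5:**
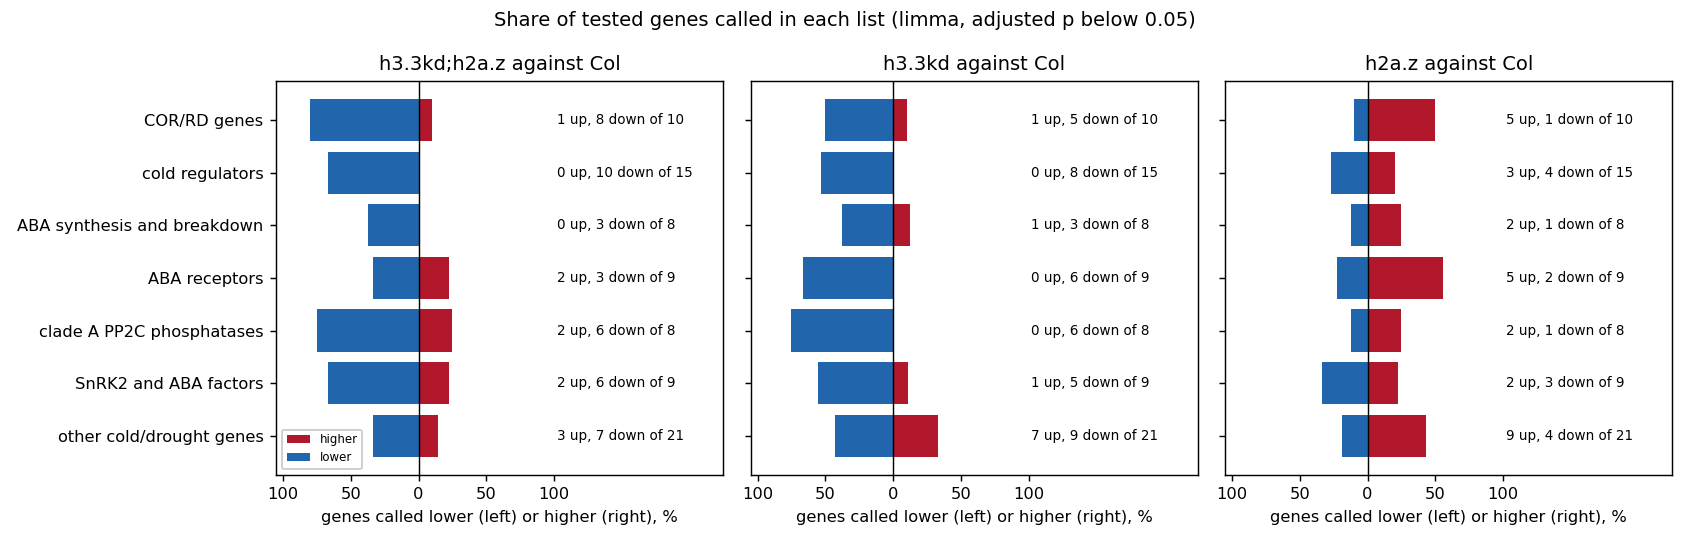
Share of tested genes called as lower (left of 0) or higher (right of 0) in each list, in percent, for the double mutant, h3.3kd and h2a.z against Col, with the counts printed beside the bars. The 10 COR/RD genes had 8 lower in the double mutant, 5 lower in h3.3kd and 5 higher in h2a.z, and the cold regulators had 10 of 15 lower in the double mutant.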

How the data were processed

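RNA was sequenced from 12 libraries of seedlings, 3 for each of 4 genotypes, grouped by the genotype in the labels. The authors deposited TPM for 23893 genes in 1 table, with a column for each library. Among tools the submitters' processing notes list DESeq2 1.26.0, HTSeq 0.11.2, HISAT2 2.1.10 and fastp 0.20.1, and as build TAIR10; the sources say neither how TPM were derived from reads nor by what rule genes entered the table. TPM in each library sum to a fixed total, so abundant transcripts that rise lower the values of all others. A Takara kit was used to extract total RNA and an NEBNext Ultra kit served for the libraries, per the labels' protocols, which do not say whether strand was kept.

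Since TPM are not counts, log2(TPM + 1) was tested with limma 3.58.1 (R 4.3.3), for the 18851 genes whose mean reached 1 TPM. A linear model with 4 groups and 8 residual degrees of freedom was fitted to all 12 libraries, with variances moderated along a mean-variance trend, and 6 two-sided contrasts were taken: the 3 mutants against Col, the double mutant against h3.3kd and against h2a.z, and the interaction. The interaction is the double mutant difference minus the sum of both single differences. P-values were adjusted by Benjamini-Hochberg over all genes tested, and genes below 0.05 are called. Fold changes on this scale understate the changes of low genes. Depth was estimated from the smallest steps between low TPM values, which are worth 1 read, and is approximate. Counting error limits the low values: the fewest reads behind a member value were about 63.

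The 4 pair ratios were tested by an exact permutation of the 1-way F statistic over genotypes. Positions, promoter windows and motif matches (CCGAC and ACGTG, both strands, overlapping matches counted) are from RefSeq TAIR10.1, in which 23739 identifiers matched and 154 did not; the deposited table holds no coordinates. The 18 alternatives were a pseudocount of 0.1, a minimum mean of 5 TPM, no filter, TPM rescaled by median ratios, no variance trend, a replicate block, and leaving out each library. They were applied to the members as planned, and to the pathway lists after the data were seen.

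The members and gene lists were chosen with earlier results of these data known. All 10 members are described in each comparison; from each list up to 4 called genes with the largest changes in a comparison could be named, and not all of them are, and the genes next to the members and the most similar gene of each member were named by fixed rules.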

Additional observations from a re-analysis of the deposited data

Results flagged for a closer look

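The response to 1 mutation differed with the state of the other in 6 of the 10 genes, by the interaction test in limma over all genes. Over all genes tested, 17.5% had a called interaction, 10.1% negative and 7.39% positive. The interaction was -1.07 for COR15A, -1.25 for COR15B, -1.02 for KIN1, -0.75 for COR6.6, -1.52 for RD29B and -0.39 for RD22 on the log2 scale, and the double mutant was below the sum of both single differences in each. RD22 lost this call with rescaled TPM (-0.36, adjusted p = 0.0562), and the other 5 kept it in all 18 alternatives. For RD29B the double mutant was at -1.19 against Col, and neither h3.3kd (0.16) nor h2a.z (0.17) was called. For COR15A the double mutant was at 0.82, h3.3kd at 0.44 (not called) and h2a.z at 1.45.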

How the results depend on the processing

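No called difference of a member changed direction in any of the 18 alternatives. Of 1080 alternative values of the 10 genes, 1034 kept their side of the threshold, 30 lost a call and 16 gained one; the calls that changed are given with their gene, and concern mainly COR15B, COR47 and RD29A against Col. The number of members called was 9 in the double mutant (all genes tested 51%), 6 in h3.3kd (35.9%) and 6 in h2a.z (47.2%) against Col. Without a variance trend it was 8, 5 and 4 for the same genotypes, and with rescaled TPM 7, 7 and 5. Of all 18851 genes, those called higher and lower without a trend were 3739 and 5706, 1601 and 4844, and 5306 and 3387, in the same order. Of 18841 genes with rescaled TPM they were 5045 and 4916, 3244 and 3123, and 4578 and 4761. A member count near such a share is no result about the members. Leaving out 1 library at a time gave 7 to 10 members called in the double mutant, 5 to 7 in h3.3kd and 4 to 7 in h2a.z. It gave 5 to 6 for the double mutant against h3.3kd, 9 to 10 against h2a.z, and 6 to 7 for the interaction. Over all genes it gave 8322 to 9971 in the double mutant, 5117 to 7300 in h3.3kd and 7648 to 9382 in h2a.z. In the other comparisons it gave 5043 to 6996 genes against h3.3kd, 8019 to 9547 against h2a.z, and 2388 to 4152 for the interaction. For the pair ratios it gave adjusted p from 0.00143 to 0.00779 (COR15A/COR15B), 0.00026 to 0.00545 (KIN1/COR6.6), 0.0117 to 0.0313 (COR47/ERD10) and 0.00195 to 0.0279 (RD29A/RD29B). In the pathway lists, 159 of 5000 alternative values lost a call, 59 gained one and 4782 kept their side. Replicate numbers did not pair the libraries: deviations of same-numbered libraries correlated between -0.17 and 0.077, and 1 of 12 libraries correlated best with its own number. A replicate block changed no member call, and the interaction was then called for 2938 genes, against 3298 without the block. Depth limits h2a.z replicate 1, with about 4350000 reads, and the causes of these changes were not tested.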
